A study of Mus musculus with 12 samples.

Results

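Genes for matrix proteases and their inhibitors were examined in CNS-associated macrophages sorted from mouse brain, 8 weeks after a week of CSF1 receptor inhibition. The members were chosen by name. They are the matrix metalloproteinases (symbols beginning with Mmp and a digit), the ADAM, ADAMTS and ADAMTS-like genes (Adam, Adamts or Adamtsl and a digit), the tissue inhibitors of metalloproteinases (Timp and a digit) and the serpins (Serpin), with pseudogenes left out and with 10 or more counts in at least 4 of the 12 libraries. The rule gave 39 members among the 13724 gene names of 56735 that passed the same count filter. These are 9 of 23 Mmp names, 10 of 34 Adam names, 3 of 24 Adamts or Adamtsl names, 3 of 4 Timp names and 14 of 64 serpin names. Of the 149 names in all, 69 had 0 counts in every library and 41 were seen below the filter, among which Mmp8 had the highest count of a library with 136. Since a member can pass the filter through 1 group in which it is high, counts over the members describe those that passed.

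All mice were homozygous for a tamoxifen-inducible Cre at Mrc1 and for the tdTomato (tdT) reporter at Rosa26, which Cre switches on (genotype Mrc1CreERT2/CreERT2:R26tdT/tdT). Mrc1 encodes CD206, the surface protein used for the sort, so tdT marks cells that expressed Mrc1 when tamoxifen was given, and their progeny. Tamoxifen was given 4 weeks before treatment, and vehicle or the CSF1 receptor inhibitor BLZ945 (200 mg/kg) was then given for 7 days, which empties much of this niche. Brains without choroid plexuses were taken 8 weeks later. The 3 groups of 4 libraries are tdT+ cells of vehicle mice, tdT+ cells of BLZ945 mice and tdT- cells of BLZ945 mice. Libraries carry the mouse labels F1, F2, M1 and M2, and the tdT+ and tdT- libraries of a BLZ945 label come from the same mouse. The labels give no ages. Setting tdT- beside tdT+ cells of the same brains asks how cells without the earlier label differ from labeled survivors, and the comparisons with vehicle ask how each differs from cells that were never depleted.

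Matrix metalloproteinases are zinc enzymes that cleave collagens, laminins and many secreted proteins, and macrophages at brain borders are a known source of them. ADAM proteases sit in the membrane and shed the outer parts of receptors, cytokines and adhesion molecules, while ADAMTS proteases are secreted and cut proteoglycans and procollagens. TIMPs block the metalloproteinases, and serpins are suicide inhibitors that trap mainly serine proteases such as thrombin, plasminogen activators, elastase and granzymes.

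Libraries held between 19969308 and 23395058 counts and between 14230 and 15866 detected gene names. Taken as a detection floor, 3 counts equal 2.60 to 3.16 normalized counts. This floor covers counting error alone, and the libraries were amplified by PCR. The added tdTomato entry had 0 counts in all 12 libraries, so the reporter labels could not be checked from its reads. The 8 macrophage markers (Mrc1, Lyve1, Cd163, Pf4, Ms4a7, Csf1r, Apoe and Cd68) were all detected in every group, with summed normalized counts of 1019880 to 1115590 in vehicle tdT+, 1206030 to 1362500 in BLZ945 tdT+ and 755130 to 1004160 in BLZ945 tdT- libraries. Mrc1 itself lay at 2232 to 3882 in tdT- libraries and at 8003 to 12341 in tdT+ libraries of the same mice. The tdT- library F2 stood apart, with 422753 normalized counts summed over 7 neutrophil markers (S100a8, S100a9, Camp, Ltf, Ngp, Retnlg and Cxcr2) against 0.920 to 70.3 in the other libraries. It also held the most red blood cell RNA, 36171 over 5 markers. The 4 microglia markers P2ry12, Tmem119, Sall1 and Siglech, all detected in every group, summed to 18200 to 26920 in vehicle tdT+, 33467 to 34984 in BLZ945 tdT+ and 75648 to 174921 in BLZ945 tdT- libraries, with the highest values in tdT- M1 (174921) and M2 (114228). In bulk samples, fewer cells of a type and less RNA per cell cannot be told apart. The tdT- libraries thus had less Mrc1 and more microglia marker RNA than the tdT+ libraries. The part of this in the differences below, higher or lower, was not tested. Mitochondrial genes took 0.907% ± 0.177 (SD, n = 4) of counts in vehicle tdT+, 0.562% ± 0.0335 in BLZ945 tdT+ and 0.446% ± 0.133 in BLZ945 tdT- libraries.

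Per kilobase of exon, a few genes carried most of the signal. Timp2, an inhibitor of metalloproteinases and a cofactor in the activation of pro-MMP2, led with 33.6% of the summed level of the 39 members over all libraries. Mmp9 (gelatinase B) followed with 17.6%, then the sheddases Adam9 with 8.05%, Adam10 with 7.46%, Adam15 with 4.96% and Adam17 with 4.85%. The leading serpins were Serpinf1 (4.37%), Serpinb6a (3.82%) and Serpine2 (3.69%). This order pools groups that differed. In vehicle cells the mean level per kilobase was 4000 for Mmp9 and 94.1 for Serpine2, below Serpinb6a (584), Serpinf1 (520) and Serpinb8 (519). In tdT- cells Serpine2 stood at 1212, next to Mmp9 (1188) and Adam10 (1130) and above Serpinf1 (816) and Serpinb6a (313). Of the 39 members, 17 had 10 or more counts in all 12 libraries, 12 reached that in 4 to 6 libraries, and 22 were at 0 in at least 1 library. The members together took 0.298% ± 0.0308 of counts in vehicle tdT+, 0.292% ± 0.0221 in BLZ945 tdT+ and 0.286% ± 0.0315 in BLZ945 tdT- libraries, differences smaller than the spread within the groups.

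**Figure D1:**
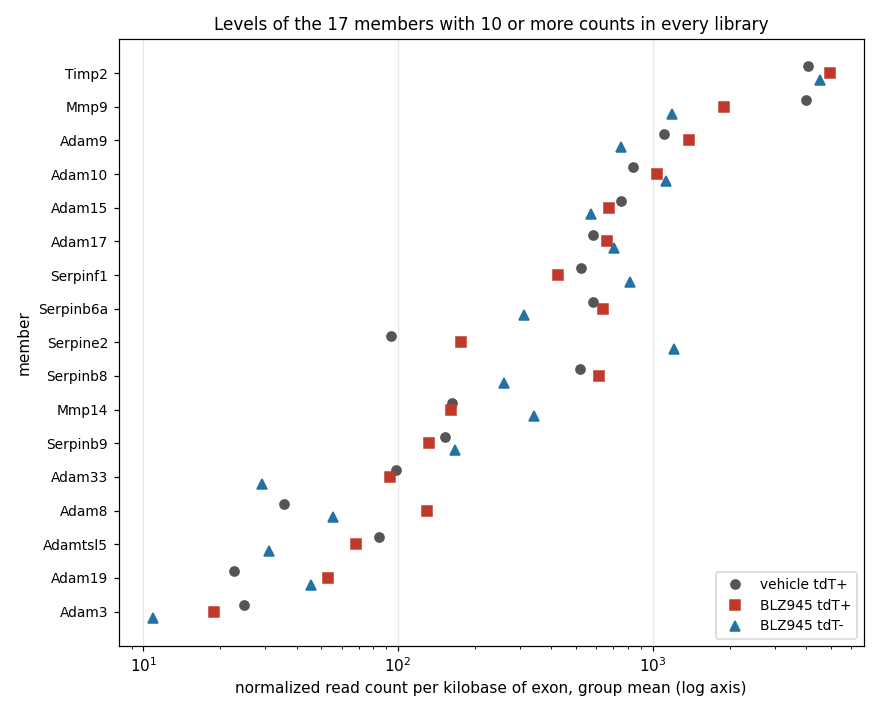
Group mean of the normalized read count per kilobase of exon (log axis) for the 17 members with 10 or more counts in all 12 libraries, with circles for vehicle tdT+, squares for BLZ945 tdT+ and triangles for BLZ945 tdT- cells (n = 4 each). Timp2 leads in all 3 groups, Mmp9 comes next in both tdT+ groups and lies beside Serpine2 and Adam10 in tdT- cells (1188, 1212 and 1130), the 3 symbols of Adam10 and Adam17 lie close together, and the symbols of Serpine2 lie farthest apart, with tdT- cells to the right.

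Differences were tested with DESeq2 over all 13724 genes. A gene is said to be called when its Benjamini-Hochberg adjusted p was at most 0.05, and a DEG when its shrunken log2 fold change was also at least 1 in size. In tdT- against tdT+ cells of BLZ945 mice, 4 members were called higher (Serpine2, Serpinf1, Mmp14 and Serpina3f), where 2.86% of all genes were called higher, and 6 were called lower (Adam9, Serpinb8, Adamtsl4, Adam33, Serpinb6a and Mmp9), where 3.51% of all genes were. Of the 39 members, 3 were DEGs (2.25% of all genes), namely Serpine2, Serpinb8 and Adam33, and 11 had groups that did not overlap (9.35% of all genes). In tdT- against vehicle tdT+ cells, 4 members were called higher (Serpine2, Mmp14, Mmp25 and Serpinf1, with 3.27% of all genes) and 6 lower (Mmp9, Adam33, Serpinb8, Adam9, Adamtsl4 and Serpinb6a, with 3.49% of all genes). There 3 members were DEGs (Serpine2, Mmp9 and Adam33, with 2.55% of all genes) and 9 had groups that did not overlap (9.70% of all genes). Both of these comparisons use the same tdT- libraries.

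Between tdT+ cells of BLZ945 and of vehicle mice, 0 members were called higher (0.481% of all genes) and 2 lower (Mmp9 and Serpina3f, with 0.474% of all genes). By DESeq2, 0 members were DEGs (0.168% of all genes), 7 had an unadjusted p under 0.05, and edgeR called 0 members. Groups did not overlap for 4 members, Adam8, Adamtsl4, Mmp9 and Timp2, where 6.72% of all genes had groups apart. The median unshrunken log2 fold change of the 39 members was -0.027 in tdT- against tdT+ cells (0.0036 over all genes), 0.10 in tdT- against vehicle cells (0.031 over all genes) and 0.13 in tdT+ against vehicle cells (0.030 over all genes). The calls in tdT- cells went in both directions.

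**Figure D2:**
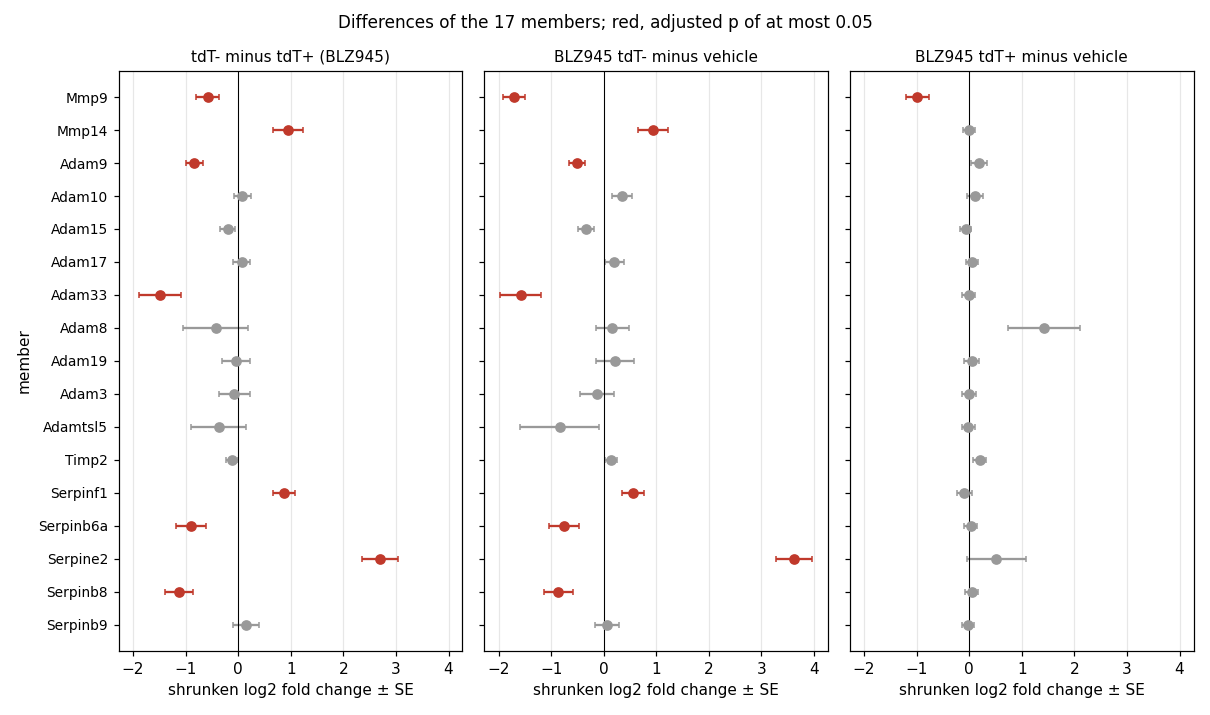
Shrunken log2 fold change with its SE for the 17 members with 10 or more counts in all 12 libraries, by family, in the 3 comparisons (red, adjusted p of at most 0.05). Serpine2 lies farthest to the right in both comparisons of tdT- cells, at 2.699 and 3.62, and Mmp9 is the red point in BLZ945 tdT+ against vehicle cells.

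Among the metalloproteinases, Mmp9 was lower in both BLZ945 groups than in vehicle cells, and Mmp14 was higher in tdT- cells than in either tdT+ group. Mmp9 (GRCm39 chr2:164782700-164797770, plus strand) encodes gelatinase B, which degrades basement membrane collagen. Its normalized counts were 12915, 20264, 12496 and 10946 in vehicle mice F1, F2, M1 and M2. They were 6935, 7148, 7205 and 5619 in BLZ945 tdT+ and 4799, 4004, 5195 and 2821 in BLZ945 tdT- libraries. The 3 groups did not overlap, in the order vehicle, BLZ945 tdT+ and BLZ945 tdT-. Mmp9 was lower in tdT- than in vehicle cells with a log2 fold change of -1.70 and a standard error (given after ± for log2 fold changes throughout) of 0.21 (adjusted p = 9.86e-15), and in BLZ945 tdT+ than in vehicle cells by -0.98 ± 0.22 (adjusted p = 9.35e-05). Between tdT- and tdT+ cells of the same mice the log2 fold change was -0.58 ± 0.21 (adjusted p = 0.0217), lower in all 4 mice, with ratios of 0.692, 0.560, 0.721 and 0.502 in F1, F2, M1 and M2. By edgeR the adjusted p was 0.000387, 0.170 and 0.110 for the 3 differences in that order, so the last 2 calls rest on DESeq2. The call between tdT- and tdT+ cells was lost without tdT- M2 (adjusted p = 0.0831) and without tdT+ F1 (0.0673), F2 (0.0751) or M1 (0.0886). Neutrophils are a known source of Mmp9. The 7 neutrophil markers summed to 2.01 to 70.3 in vehicle, 0.920 to 56.2 in BLZ945 tdT+ and 3.16 to 422753 in tdT- libraries, and their part in the Mmp9 differences was not tested.

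Mmp14 (chr14:54669069-54682821, plus strand) encodes MT1-MMP, a membrane-anchored collagenase that also activates pro-MMP2. It was measured at 1123, 1112, 1086 and 550 in vehicle mice F1, F2, M1 and M2, at 1218, 1060, 761 and 798 in BLZ945 tdT+ and at 1457, 2123, 2157 and 2374 in BLZ945 tdT- libraries. All 4 tdT- libraries lay above all 8 tdT+ libraries, and the 2 tdT+ groups overlapped. The log2 fold change was 0.95 ± 0.29 against BLZ945 tdT+ (adjusted p = 0.00283) and 0.94 ± 0.29 against vehicle cells (adjusted p = 0.00315). Both calls also passed by edgeR (adjusted p = 0.0405 and 0.0406) and without any single library.

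The secreted Mmp2, which Mmp14 activates and TIMP2 helps to present to it, was at 0 to 230 normalized counts and was not called in any comparison. Mmp13 (collagenase 3) spread widely in tdT- cells, from 0 in M1 over 31.1 in F2 and 422 in M2 to 1018 in F1, and was not called against vehicle cells (48.1 to 98.3, adjusted p = 0.282) except without tdT- M1 (adjusted p = 0.0364). Mmp12, the macrophage elastase, showed a like spread, with 504, 74.4, 142 and 0 in tdT- F1, F2, M1 and M2 against 0 to 63.6 in the 8 tdT+ libraries, and was not called. Mmp25, a GPI-anchored metalloproteinase best known from leukocytes, had 0 counts in all 4 vehicle libraries and 53.2, 3.77, 30.6 and 211 normalized counts in tdT- F1, F2, M1 and M2. Its tdT- mean of 74.7 (SD 93.3) was 26.5-fold the floor of 3 counts per vehicle library. The shrunken log2 fold change against vehicle cells was 0.069 ± 0.32, small beside its SE. The call against vehicle cells (adjusted p = 0.00349) was lost by edgeR (adjusted p = 0.124) and without tdT- M2 (adjusted p = 0.0914). In BLZ945 tdT+ libraries Mmp25 was at 0 in F1 and M2 and at 52.5 and 56.4 in F2 and M1, and it was called against vehicle cells only without tdT+ F1 (adjusted p = 0.0469). Mmp11, Mmp15 and Mmp19 reached at most 215 normalized counts and were not called.

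Of the 10 ADAM genes, Adam9 and Adam33 were called lower in tdT- cells than in both tdT+ groups, and 0 of the other 8 were called in the 3 comparisons. Adam9 (chr8:25439627-25506943, minus strand), a widely expressed sheddase, was the highest ADAM gene per kilobase over all 12 libraries. In tdT- cells Adam10 was higher per kilobase (1130 against 749). Normalized counts of Adam9 were 3997, 4725, 5537 and 3989 in vehicle mice F1, F2, M1 and M2, and 5783, 6252, 5740 and 4927 in BLZ945 tdT+ libraries. They were 3133, 2755, 3802 and 2645 in tdT- libraries, all below the 8 tdT+ libraries. Its log2 fold change was -0.83 ± 0.16 against BLZ945 tdT+ (adjusted p = 1.53e-06) and -0.51 ± 0.16 against vehicle cells (adjusted p = 0.00799), the latter lost without vehicle M1 (adjusted p = 0.0644). Within mice, the tdT- to tdT+ ratio of Adam9 ran from 0.441 to 0.662.

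Adam33 (chr2:130892511-130905734, minus strand), an ADAM protease otherwise known from mesenchymal cells, had the largest called difference in this family. It was measured at 560, 569, 635 and 359 in vehicle, 409, 469, 591 and 542 in BLZ945 tdT+ and 205, 80.0, 223 and 125 in BLZ945 tdT- libraries of F1, F2, M1 and M2. The tdT- libraries lay below all 8 tdT+ libraries, and the tdT+ groups overlapped. Adam33 had a log2 fold change of -1.49 ± 0.40 against BLZ945 tdT+ (adjusted p = 0.000363) and -1.58 ± 0.39 against vehicle cells (adjusted p = 0.000147). Both calls held by edgeR (adjusted p = 0.0214 and 0.0150) and without any single library. The 6 fibroblast markers summed to 156 to 399 in vehicle, 250 to 329 in BLZ945 tdT+ and 12.7 to 421 in tdT- libraries. In tdT- F1, F2, M1 and M2 the sum was 421, 148, 12.7 and 98.5. Col3a1 and Lum were at 0 in all 4, but reached only 4.51 and 32.3 at most in the tdT+ libraries. Dcn lay at 277, 118, 0 and 95.6 in these tdT- libraries and at 0 to 236 in the tdT+ libraries. The part of fibroblast RNA in the Adam33 difference was not tested.

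Adam10 and Adam17, the main sheddases of Notch, TNF and many receptors, were not called in any comparison. Adam10 averaged 4106 ± 701 in vehicle, 5084 ± 1349 in BLZ945 tdT+ and 5552 ± 602 in tdT- libraries (SD, n = 4). For tdT- against vehicle cells it passed only without tdT+ F1 (adjusted p = 0.0489, against 0.218 with all libraries). Adam17 lay between 3518 and 6378 over the 12 libraries. Adam15, a sheddase with an integrin-binding domain, averaged 4604 ± 752, 4141 ± 592 and 3503 ± 266, and passed for tdT- against vehicle cells only without vehicle M2 (adjusted p = 0.00706, against 0.104). Adam8, known from activated myeloid cells, was at 43.1, 312, 162 and 144 in vehicle and at 535, 544, 897 and 430 in BLZ945 tdT+ libraries. These groups did not overlap, but the adjusted p was 0.0753. Adam22, a family member without protease activity, was at 244 to 398 in BLZ945 tdT+ and at 0 to 96.0 in tdT- libraries, groups that did not overlap, with an adjusted p of 0.0599. Adam3, Adam19 and Adam23 were not called, and Adam23 was given no p because its counts were marked as outlying by DESeq2.

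ADAMTS genes were scarce. Adamtsl4, a protein of microfibrils without protease activity, was at 0 in all 4 tdT- libraries and at 145, 60.8, 134 and 82.9 in BLZ945 tdT+ libraries of F1, F2, M1 and M2. Vehicle libraries had 44.6 in F2 and 57.1 in M1 and 0 in F1 and M2. The BLZ945 tdT+ mean was 35.3-fold, and the vehicle mean 8.49-fold, the floor of 3 counts per tdT- library. Shrunken log2 fold changes of tdT- cells were -0.084 ± 0.31 against BLZ945 tdT+ and -0.092 ± 0.33 against vehicle cells, small beside their SE. DESeq2 called both differences (adjusted p = 0.000268 and 0.0109), and edgeR neither (0.0787 and 0.132). The call against vehicle cells was lost without vehicle F2 (adjusted p = 0.0580) or M1 (0.0807), and with the 8 libraries of that comparison alone (0.281). Adamtsl5, the highest of these genes per kilobase, was at 302, 487, 273 and 532 in vehicle, 208, 356, 345 and 387 in BLZ945 tdT+ and 88.7, 103, 52.7 and 344 in tdT- libraries of F1, F2, M1 and M2. It was not called (adjusted p = 0.280 and 0.112 for tdT- against BLZ945 tdT+ and vehicle cells), and tdT- M2 lay among the tdT+ values. Without that library the adjusted p was 0.000287 and 1.40e-05. Adamts10, a microfibril-associated protease, lay between 0 and 223 and was not called.

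**Figure D3:**
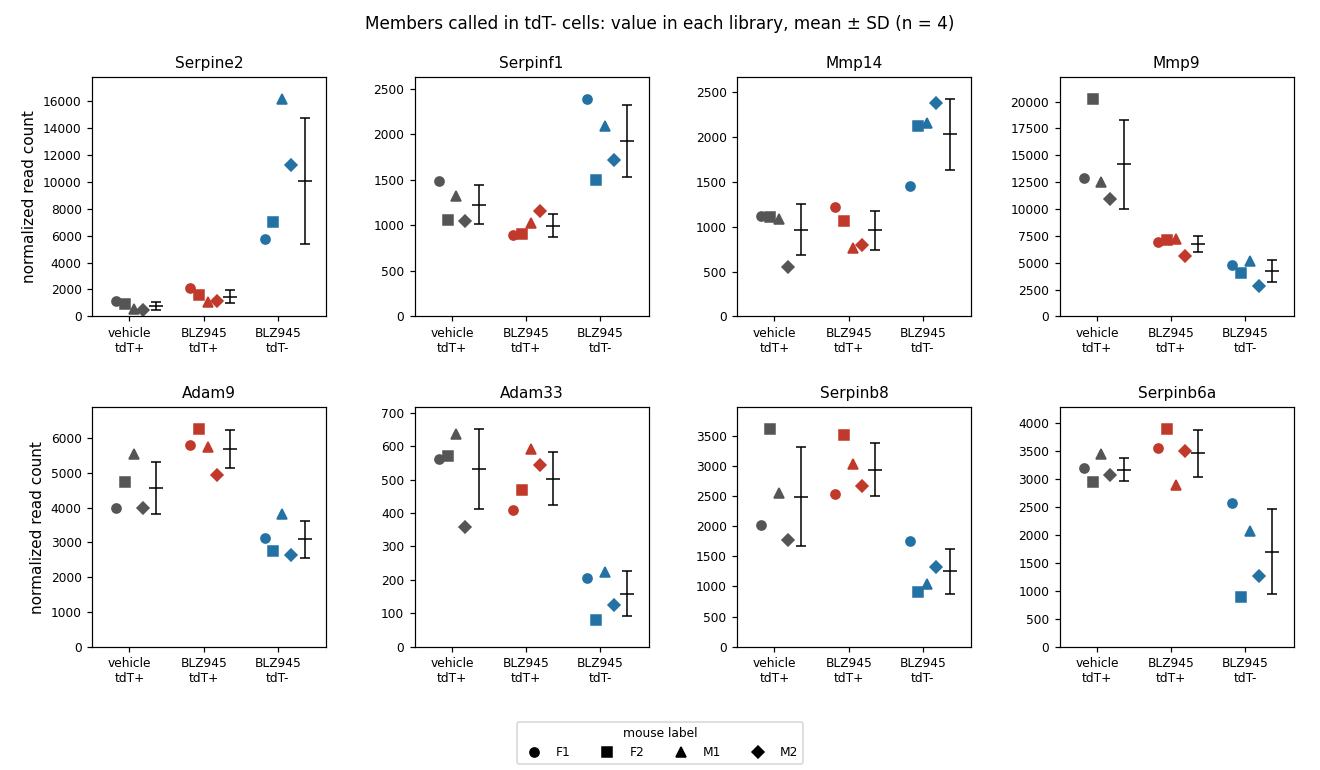
Normalized read count of 8 members in each of the 12 libraries, with the mouse label as the symbol and the mean ± SD (n = 4) as a bar beside each group. In all 8 panels the 4 tdT- libraries lie on 1 side of the 8 tdT+ libraries, above them for Serpine2, Serpinf1 and Mmp14 and below them for the others.

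The tissue inhibitors were led by Timp2 (chr11:118191887-118246566, minus strand), the highest member per kilobase. Timp2 was measured at 16824, 16134, 18638 and 17257 in vehicle, 20790, 21467, 21749 and 19648 in BLZ945 tdT+ and 19478, 14232, 22130 and 20583 in BLZ945 tdT- libraries of F1, F2, M1 and M2. The vehicle and BLZ945 tdT+ groups did not overlap, with a ratio of means of 1.21, but the difference was not called (log2 fold change 0.20 ± 0.12, adjusted p = 0.408). The difference was called by DESeq2 with the 8 libraries of this comparison alone (adjusted p = 0.008) and without tdT- F2 (adjusted p = 0.00933). Library tdT- F2, with neutrophil RNA and the lowest Timp2 value, is in neither group. It enters this comparison only through the fit of all libraries. Without tdT- F2, Timp2 was called higher in tdT- than in vehicle cells too (log2 fold change 0.25, adjusted p = 0.0119). Timp3, an inhibitor bound to the matrix that also blocks ADAM17, was scarce. It lay at 93.9, 42.4, 66.7 and 92.3 in BLZ945 tdT+ and at 0, 0, 3.16 and 29.6 in tdT- libraries of F1, F2, M1 and M2, groups that did not overlap. The adjusted p was 0.158, and 0.0177 in the fit with the mouse as replicate block. Without tdT- M2 the adjusted p of Timp3 was 0.000189 against BLZ945 tdT+ and 0.00176 against vehicle cells. Timp4 reached at most 153 and was not called, and Timp1 did not pass the count filter.

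Among the serpins, Serpine2 had the largest shrunken log2 fold change of all members, and the called clade B serpins were lower in tdT- cells. Serpine2 (chr1:79771914-79838897, minus strand) encodes protease nexin-1, an inhibitor of thrombin, urokinase and plasmin that is made in the brain by glia. Its normalized counts were 1148, 954, 525 and 491 in vehicle mice F1, F2, M1 and M2. They were 2077, 1611, 1053 and 1119 in BLZ945 tdT+ and 5752, 7041, 16158 and 11210 in BLZ945 tdT- libraries. Every tdT- library lay above every tdT+ library, while the 2 tdT+ groups overlapped. Serpine2 averaged 10040 ± 4697 in tdT-, 1465 ± 478 in BLZ945 tdT+ and 780 ± 323 in vehicle cells (SD, n = 4). The log2 fold change was 2.699 ± 0.35 against BLZ945 tdT+ (adjusted p = 1.39e-13) and 3.62 ± 0.34 against vehicle cells (adjusted p = 2.47e-24), and both calls held by edgeR and without any single library.

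Within mice, the tdT- to tdT+ ratio of Serpine2 was 2.77 in F1, 4.37 in F2, 15.3 in M1 and 10.02 in M2. Both M ratios were above both F ratios. In the edgeR test for a difference between the letters, 0 members passed (smallest adjusted p of a member 0.778). That test set F1 and F2 against M1 and M2 without a term for the mouse. It called 0 of all 13724 genes, so it cannot decide whether the letters differ. The summed microglia markers were also higher in all tdT- than in all tdT+ libraries, and M1 and M2 had the 2 highest values of both Serpine2 and the marker sum. P2ry12, a marker of this list, stood at 42296, 44758, 106728 and 67976 in tdT- F1, F2, M1 and M2 and at 20588 to 23924 in BLZ945 tdT+ libraries. The part of microglia RNA in the Serpine2 difference was not tested. Between BLZ945 tdT+ and vehicle cells Serpine2 was not called (log2 fold change 0.51 ± 0.56, adjusted p = 0.260). Each BLZ945 library lay above the vehicle library of the same label, but these are different mice that share a label alone.

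**Figure D4:**
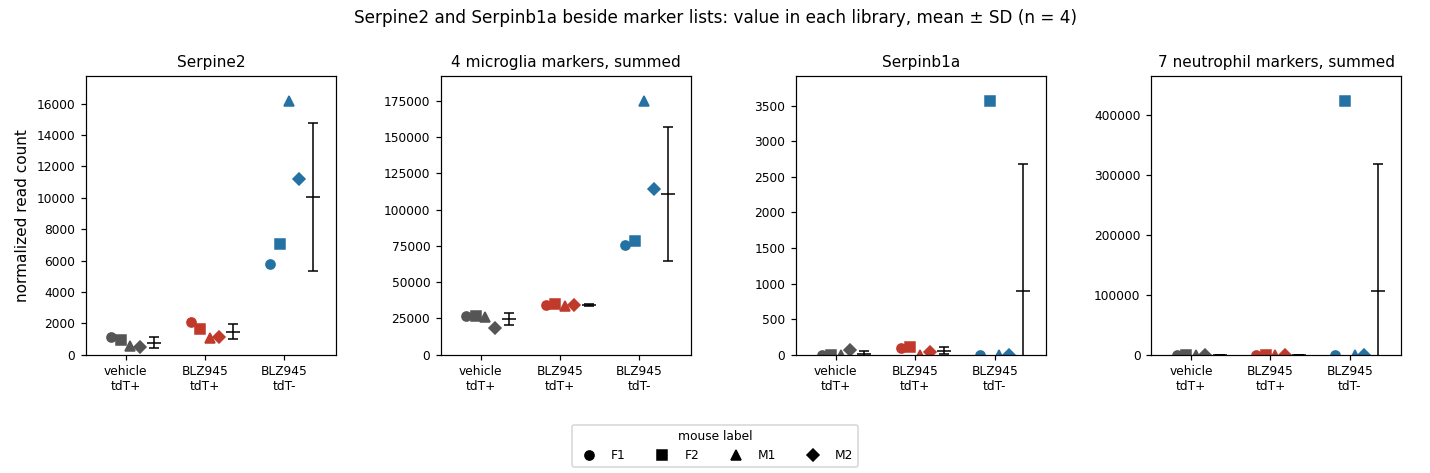
Normalized read count in each library of Serpine2, of 4 microglia markers summed, of Serpinb1a and of 7 neutrophil markers summed, with the mouse label as the symbol and the mean ± SD (n = 4) as a bar, which the axis cuts at 0. Serpine2 and the microglia sum are both highest in tdT- M1 (16158 and 174921), and Serpinb1a and the neutrophil sum both stand out in tdT- F2 (3564 and 422753).

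Serpinf1 (chr11:75300595-75313527, minus strand) encodes PEDF, a secreted serpin without inhibitory activity that is known as a neurotrophic and antiangiogenic factor. It was measured at 1483, 1062, 1322 and 1043 in vehicle, 893, 905, 1026 and 1161 in BLZ945 tdT+ and 2388, 1500, 2090 and 1718 in tdT- libraries of F1, F2, M1 and M2. All tdT- libraries lay above all tdT+ libraries, with vehicle F1 (1483) just below tdT- F2 (1500). Serpinf1 had a log2 fold change of 0.87 ± 0.21 against BLZ945 tdT+ (adjusted p = 0.000219, by edgeR 0.0159) and 0.55 ± 0.21 against vehicle cells (adjusted p = 0.0304, by edgeR 0.108). The difference from vehicle cells was not called without tdT- F1 (adjusted p = 0.138) or M1 (0.101), nor without vehicle F2 (0.122), M1 (0.0593) or M2 (0.126). With the 8 libraries of that comparison alone it was not called either (adjusted p = 0.0778).

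Clade B serpins act inside cells. Serpinb8 (chr1:107517736-107538214, plus strand), an inhibitor of furin-like proteases, was at 2024, 3607, 2556 and 1765 in vehicle, 2528, 3514, 3031 and 2671 in BLZ945 tdT+ and 1749, 900, 1043 and 1316 in tdT- libraries of F1, F2, M1 and M2. The tdT- values lay below all tdT+ values, with tdT- F1 (1749) next to vehicle M2 (1765). The log2 fold change was -1.12 ± 0.27 against BLZ945 tdT+ (adjusted p = 0.000115) and -0.87 ± 0.27 against vehicle cells (adjusted p = 0.00413). Serpinb6a (chr13:34101901-34186777, minus strand), an inhibitor of cathepsin G and other serine proteases, was at 3183, 2945, 3439 and 3070 in vehicle, 3540, 3883, 2886 and 3491 in BLZ945 tdT+ and 2560, 894, 2063 and 1255 in tdT- libraries. These groups did not overlap either, and the lowest tdT- value was that of F2. The log2 fold change was -0.90 ± 0.28 against BLZ945 tdT+ (adjusted p = 0.00352, by edgeR 0.0482) and -0.76 ± 0.28 against vehicle cells (adjusted p = 0.0151, by edgeR 0.0747). The latter was lost without tdT- M2 (adjusted p = 0.0642) or vehicle M1 (0.0669), and with the 8 libraries of that comparison alone (0.0522). Exons of Serpinb6a overlap those of Ripk1 over 241 bases and of Nqo2 over 762 bases on the opposite strand, and reads there cannot be told apart since strand was not used. Serpinb9, the granzyme B inhibitor, lay at 361 to 927 in all libraries and was not called.

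Serpinb1a, an inhibitor of neutrophil elastase, was at 3564 in tdT- F2, the library with neutrophil RNA, and at 0 in the other 3 tdT- libraries. It reached at most 106 elsewhere, and DESeq2 gave it no p because that count was marked as outlying. Serpina3f, a member of the mouse antichymotrypsin cluster, has close paralogs that can take or lose shared reads, so its level is uncertain. It was at 85.2, 120, 0 and 178 in vehicle libraries of F1, F2, M1 and M2 and at 0 in all 4 BLZ945 tdT+ libraries. Of the tdT- libraries it had 210 in F1 and 0 in the others. The vehicle mean was 32.6-fold, and the tdT- mean 17.8-fold, the floor of 3 counts per BLZ945 tdT+ library. Shrunken log2 fold changes were -0.0067 ± 0.13 for BLZ945 tdT+ against vehicle cells and 0.035 ± 0.30 for tdT- against tdT+ cells, small beside their SE. DESeq2 called Serpina3f lower in BLZ945 tdT+ than in vehicle cells (adjusted p = 5.69e-13) and higher in tdT- than in tdT+ cells (adjusted p = 2.45e-11), and edgeR called neither (0.572 and 0.250). The latter call rests on tdT- F1, without which the adjusted p was 0.9997, and was also lost with the mouse as replicate block (adjusted p = 0.923). Without tdT- F1, Serpina3f was called lower in tdT- than in vehicle cells (adjusted p = 0.0165). Serpina3g, Serpinb6b, Serpinb10, Serping1, Serpinh1 and Serpini1 passed the filter, reached at most 222 normalized counts and were not called.

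Library F2 of tdT- cells was left out to see which calls rest on it. In tdT- against BLZ945 tdT+ cells 10 members were still called, the same 10 as with all libraries, and 2 of them were DEGs, Serpinb8 standing at a log2 fold change of -0.98. Serpine2 stood at 2.82, Mmp14 at 0.88 and Adam33 at -1.29. In tdT- against vehicle cells 13 members were called without that library, and in BLZ945 tdT+ against vehicle cells 4.

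The upstream sequences of 5 members are shown because these genes were called in tdT- cells against both tdT+ groups with no overlap and stood in the table used. Each is the 250 bases before the RefSeq start site on GRCm38.p6, another build than that of the counts, from a table that held 29 of the 39 members. Mmp9, Adam9 and Adam33 were among those without an entry, and Serpinb6a had 2 windows. The 25 bases after the start were found in 1 or 2 GENCODE M21 transcripts of the other genes and in 0 of 7 of Mmp14, so it is not settled that the Mmp14 window precedes an annotated transcript. Capitals mark matches on either strand to the TATA box written as TATAAA, the CCAAT box, the GC box written as GGGCGG, the AP-1 motif written as TGANTCA or the PU.1 core written as GAGGAA, and the windows run 5′ to 3′ toward the start.
Serpine2 (chr1:79858666-79858915, minus strand): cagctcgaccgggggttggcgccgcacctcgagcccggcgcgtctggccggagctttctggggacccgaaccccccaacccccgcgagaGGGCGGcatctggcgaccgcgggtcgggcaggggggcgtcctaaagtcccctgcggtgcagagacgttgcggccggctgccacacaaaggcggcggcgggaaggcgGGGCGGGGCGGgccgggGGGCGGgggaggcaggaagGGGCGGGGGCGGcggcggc
Serpinf1 (chr11:75422624-75422873, minus strand): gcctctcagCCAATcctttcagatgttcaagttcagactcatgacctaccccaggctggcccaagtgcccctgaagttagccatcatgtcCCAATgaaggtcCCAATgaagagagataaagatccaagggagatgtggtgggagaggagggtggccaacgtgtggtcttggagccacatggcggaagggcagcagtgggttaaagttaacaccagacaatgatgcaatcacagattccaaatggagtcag
Mmp14 (chr14:54431348-54431597, plus strand): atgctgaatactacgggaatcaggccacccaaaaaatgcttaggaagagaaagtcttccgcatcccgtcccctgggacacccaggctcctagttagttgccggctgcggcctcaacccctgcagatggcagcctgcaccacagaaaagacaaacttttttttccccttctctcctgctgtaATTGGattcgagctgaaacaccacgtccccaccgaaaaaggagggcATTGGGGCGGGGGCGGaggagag
Serpinb8 (chr1:107589756-107590005, plus strand): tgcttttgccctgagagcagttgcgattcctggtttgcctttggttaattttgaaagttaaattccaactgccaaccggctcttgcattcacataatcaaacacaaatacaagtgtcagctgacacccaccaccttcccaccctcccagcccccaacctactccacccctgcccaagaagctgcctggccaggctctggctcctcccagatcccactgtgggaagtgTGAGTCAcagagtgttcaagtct
Serpinb6a (chr13:34002795-34003044, minus strand): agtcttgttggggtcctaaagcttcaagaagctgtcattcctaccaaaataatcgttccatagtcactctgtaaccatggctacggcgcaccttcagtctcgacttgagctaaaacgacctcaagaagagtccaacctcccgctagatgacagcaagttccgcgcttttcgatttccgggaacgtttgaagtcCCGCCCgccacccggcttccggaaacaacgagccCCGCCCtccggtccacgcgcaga
Serpinb6a (chr13:33936084-33936333, minus strand): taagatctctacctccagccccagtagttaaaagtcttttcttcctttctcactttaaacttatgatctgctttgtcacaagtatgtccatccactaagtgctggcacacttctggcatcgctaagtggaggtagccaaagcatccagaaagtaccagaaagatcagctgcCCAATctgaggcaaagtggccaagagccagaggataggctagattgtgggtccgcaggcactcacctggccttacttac
The window of Serpine2 held 6 GC boxes, 2 of which shared a base, with 78.8% G and C against a median of 52.4% over all windows of the table. That of Mmp14 held 2 GC boxes and 2 CCAAT boxes, of which 1 overlapped a GC box by a base, and that of Serpinf1 held 3 CCAAT boxes. Serpinb8, which was lower in tdT- cells, had a match to the AP-1 motif in the last 25 bases. Serpinb6a, also lower, held 2 GC boxes in 1 window and a CCAAT box in the other. GC and CCAAT boxes thus stood before genes called in either direction. Of the 32851 windows in the table, 32.7% held a GC box, 33.8% a CCAAT box, 6.75% the AP-1 motif, 23.3% GAGGAA and 12.4% a TATA box. These matches describe the letters and no binding was measured.

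Genes that work with these proteases were taken as lists. Over all genes, 2.86% were called higher and 3.51% lower in tdT- against BLZ945 tdT+ cells, 3.27% and 3.49% in tdT- against vehicle cells, and 0.481% and 0.474% in BLZ945 tdT+ against vehicle cells. Of the plasminogen and coagulation list, 11 of 16 genes were tested. In tdT- against BLZ945 tdT+ cells 2 were called higher, Anxa2 (log2 fold change 1.43 ± 0.51) and S100a10 (0.87 ± 0.22), which together form a plasminogen receptor, and 1 lower, F13a1 (-0.97 ± 0.16), the transglutaminase that cross-links fibrin. Against vehicle cells 4 were called higher, with Plaur, the urokinase receptor (1.40 ± 0.45), and Lrp1, an endocytic receptor for serpin complexes (0.47 ± 0.17), added, and F13a1 again lower (-0.59 ± 0.16). In BLZ945 tdT+ against vehicle cells 0 of the 11 were called. The median unshrunken log2 fold change of this list was 0.026, 0.49 and 0.42 in the 3 comparisons, against 0.0036, 0.031 and 0.030 over all genes.

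Of the other protease inhibitors, 7 of 17 were tested. Against BLZ945 tdT+ cells, tdT- cells had 3 called higher, Cst3 (cystatin C, 1.08 ± 0.17), Cst7 (cystatin F, 3.72 ± 1.44) and Spint1 (an inhibitor of matriptase and hepsin, 2.12 ± 0.78), and 1 lower, Wfdc17 (-0.75 ± 0.13). Cst3 was the most abundant of them, at 349609 ± 114234 normalized counts in tdT- and 160664 ± 13539 in BLZ945 tdT+ cells. Against vehicle cells, Cst3 and Spint1 were called higher in tdT- cells (0.91 ± 0.17 and 4.11 ± 0.72). Wfdc17 was the gene of the list called in BLZ945 tdT+ against vehicle cells, higher by 0.81 ± 0.13. The medians of this list were 1.12, 0.96 and -0.16. Like the microglia markers, Cst3 is a gene of high level in microglia, and the part of microglia RNA in these differences was not tested.

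Of 13 shedding cofactors and activating convertases, 10 were tested. Rhbdf2, an iRhom that brings ADAM17 to the surface, was lower in tdT- than in BLZ945 tdT+ cells (-1.08 ± 0.39) and than in vehicle cells (-0.96 ± 0.39), and 0 were called in BLZ945 tdT+ against vehicle cells. These 10 had medians of -0.12, -0.29 and 0.094. Of 21 surface proteins known to be shed, 19 were tested. In tdT- against BLZ945 tdT+ cells 1 was called higher, the lipid receptor Trem2 (0.76 ± 0.15; 2.86% of all genes were called higher), and 6 lower (3.51% of all genes), Cd163 (-2.79 ± 0.13), Lyve1 (-1.99 ± 0.20), Vcam1 (-1.79 ± 0.20), Notch2 (-1.03 ± 0.36), App (-0.53 ± 0.14) and Csf1r (-0.25 ± 0.08). The study chose Lyve1 and Cd163 as markers on these same samples, so their fall is not independent evidence. Against vehicle cells 2 were called higher (Trem2 and Mertk) and 4 lower (Cd163, Vcam1, Lyve1 and Il6ra). In BLZ945 tdT+ against vehicle cells 3 were called higher (Lyve1, Vcam1 and Cd163). Medians of the shed proteins were -0.26, -0.20 and 0.17.

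Of 22 genes of the extracellular matrix, 7 were tested. In tdT- against BLZ945 tdT+ cells 2 were called higher, Spp1 (osteopontin, 3.23 ± 0.90) and Sparc (osteonectin, 2.08 ± 0.36), and 2 lower, the laminin chain Lamc1 (-8.14 ± 1.03, with 0.717 normalized counts on average in tdT- against 252 in tdT+ cells) and the basement membrane protein Nid2 (-1.32 ± 0.42). The tdT- mean of Lamc1 lies below the detection floor of 2.60 to 3.16 normalized counts, so the size of its differences is uncertain. Against vehicle cells Sparc (2.90 ± 0.35) and Spp1 (2.06 ± 1.02) were again higher and Lamc1 lower (-8.37 ± 1.03), and in BLZ945 tdT+ against vehicle cells 0 were called. The matrix genes had medians of -1.53, -0.86 and 0.66. Of 12 serine proteases that serpins inhibit, C1ra alone passed the count filter and it was not called, while 11 of the 12 did not reach the filter. Sparc and Trem2, like Cst3, are abundant in microglia, but they were also at 4055 and 11474 normalized counts on average in vehicle tdT+ cells. The part of microglia RNA in their differences was not tested. Over the 6 lists, edgeR did not call 7 of the 19 genes called in tdT- against BLZ945 tdT+ cells (Anxa2, Csf1r, Cst7, Nid2, Notch2, Rhbdf2 and Spint1), 7 of the 17 in tdT- against vehicle cells and 3 of the 4 in BLZ945 tdT+ against vehicle cells, where Wfdc17 was the gene it did call.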

How the data were processed

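RNA of sorted cells was sequenced after SMART-Seq amplification. Per the file headers, the authors counted reads over exons of a filtered GENCODE M33 annotation (GRCm39) with a tdTomato entry, using featureCounts 2.0.6 without strand and without multi-mapping reads, after alignment with STAR 2.7.11a per the submitters' processing notes. The deposited counts are not normalized. Columns were assigned by library number (0 left over), and 1 vehicle column numbered as M2 carries the label M1. Over the 18 pairs of replicates, chi-square over its degrees of freedom was at least 48.7, far from sampling noise. In R 4.3.3, genes with 10 or more counts in at least 4 of 12 libraries entered 1 DESeq2 1.42.0 fit of all libraries, with its default size factors and the group as model term. Wald tests were two-sided, and apeglm 1.24.0 shrank the log2 fold changes. Normalized counts are counts divided by size factors, and per-kilobase levels use the deposited exon lengths. A p-value that DESeq2 withheld was left out. The edgeR 4.0.16 quasi-likelihood test with TMM factors was an alternative, beside TMM factors in DESeq2, no count filter, a filter of 10 counts in 9 libraries, unshrunken log2 fold changes, the 8 libraries of a comparison with and without the mouse label as replicate block, and leaving out each library. The scripts were tested on simulated data. The label pairs tdT- and tdT+ libraries because they come from the same mouse, and the deviations of same-label libraries from their group means correlated at 0.0171 to 0.0626 over genes. The vehicle mice share a label alone. Members with an adjusted p of at most 0.05 in any comparison and the 3 highest of each family per kilobase were to be named with values. Members and lists were chosen with earlier results of these data known. The lists were plasminogen and coagulation, other protease inhibitors, shedding cofactors and convertases, shed surface proteins, serpin targets and matrix genes, and markers of 14 cell types. One member and a gene each of the microglia and shed protein lists are not reported here, and the 2 lists were summed and counted without them.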

Additional observations from a re-analysis of the deposited data

Results flagged for a closer look

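In the 54 sets of 4 libraries of the 19 named members that were not all equal, 5 had a library whose gap to the nearest other, as a share of the whole range, was above the critical value of Dixon's test for 4 samples. Chance flags about 1 in 20 sets, which would be 2.7. In vehicle cells, Mmp14 of M2 (550) lay far below the others (1086 to 1123), with a gap of 0.935. In BLZ945 tdT+ cells, Adamts10 of F1 (0.920) lay far below the others (117 to 127), with a gap of 0.919, and Mmp9 of M2 (5619) lay below the others (6935 to 7205), with a gap of 0.830. In tdT- cells, Serpina3f of F1 (210, the others at 0) had a gap of 1 and Timp3 of M2 (29.6, the others 0 to 3.16) a gap of 0.893. In an edgeR test of whether the tdT- against tdT+ difference varied between mice labeled F and M, 0 of 13724 genes and 0 of 39 members were called, with 801 genes and 3 members at an unadjusted p under 0.05.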

How the results depend on the processing

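Of 22 calls of members, 11 were made under every alternative that tested them, among them both calls of Serpine2, Mmp14 and Adam33 and the calls of Adam9, Serpinb8, Serpinb6a and Serpinf1 against BLZ945 tdT+ cells. With edgeR, 7 members were called in tdT- against BLZ945 tdT+ cells (10 by DESeq2), 6 in tdT- against vehicle cells (10) and 0 in BLZ945 tdT+ against vehicle cells (2). The 8 libraries of a comparison alone gave 9 calls in tdT- against BLZ945 tdT+ cells and 7 in tdT- against vehicle cells. With the replicate block these were 11 and 14. DEGs in the 2 comparisons of tdT- cells, 3 each in the report, were 5 and 5 with edgeR and 7 and 6 with unshrunken values. In BLZ945 tdT+ against vehicle cells, calls were 1 with the stricter filter, 4 with the 8 libraries alone and 5 with the replicate block there, and DEGs, 0 in the report, were 2 with unshrunken values, the 8 libraries alone or the replicate block, and 1 with TMM factors or no count filter. That block pairs vehicle mice by label only. With it, Serpine2 (log2 fold change 0.85, adjusted p = 0.00120) and Timp2 (0.25, adjusted p = 0.0149) were called against vehicle, and in tdT- against vehicle cells Adamtsl5 was called (adjusted p = 0.0208) and Serpinb8 was not (0.0519). Within mice, the replicate block changed the calls of Serpina3f and Timp3 alone among the named members. Leaving out 1 library gave 9 to 11, 7 to 13 and 1 to 4 calls and 2 to 5, 3 to 6 and 0 to 1 DEGs in tdT- against tdT+, tdT- against vehicle and tdT+ against vehicle cells. The most DEGs in tdT- cells (5 and 6) came without tdT- F1, and the most and fewest calls of tdT+ against vehicle cells (4 and 1) without tdT- F2 and tdT- M1. Without tdT- F1, Serpina3f turned to -0.0019 against tdT+ cells, the highest value on leaving out a library being 0.051. The tdT- libraries are in neither group of tdT+ against vehicle cells and enter that comparison only through the fit of all libraries. What else lay behind these changes was not tested. Of the 39 members, 22 were at 0 in at least 1 library, which limits their comparison.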
